A study of Rattus norvegicus with 6 samples.

Results

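Matrix metalloproteinases (MMPs), ADAMTS proteases, ADAM sheddases and their TIMP inhibitors were compared between cultured nerve-derived Schwann cell precursors (NSCPs) and skin-derived precursors (SKPs) of newborn rats. The genes were taken by symbol, a choice made with earlier results of these data known. The symbols covered all MMPs, ADAMTS and ADAMTS-like genes, 7 ADAM genes of cell-surface shedding, Timp1 to Timp4 and Reck. Of the 59 genes that RefSeq lists under these symbols, 50 had a probe set with a single symbol and are described here, among 18166 genes on the arrays. They are 20 MMPs, 14 ADAMTS proteases, 5 ADAMTS-like proteins, 6 ADAM sheddases, 4 TIMPs and Reck. Adam10, Adamts6, Adamts8, Adamts13, Adamts16, Adamts20, Mmp1b, Mmp24 and Mmp25 were not analysed here.

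The NSCP group held 3 isolates from the sciatic nerve of newborn wild-type Sprague-Dawley pups, grown on laminin and poly-D-lysine with forskolin (5 μM) and neuregulin-1β (25 ng/ml). The SKP group held 3 isolates from back skin of newborn pups of that strain, grown as spheres with 40 ng/ml FGF2 and 20 ng/ml EGF. Each isolate was measured on 1 array. The culture text of the labels runs both media together in a single passage, and the assignment of coating and factors to each group is a reading of it. Tissue of origin, medium and growth form changed together between the groups and cannot be told apart.

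MMPs are zinc proteases that cut collagens, laminins, fibronectin and other matrix proteins, and most are made as inactive proenzymes. ADAMTS proteases are secreted and cut proteoglycans, procollagens and microfibril proteins, while ADAMTS-like proteins lack the protease domain. ADAM sheddases sit in the membrane and release growth factors and receptors from the cell surface. TIMPs bind the active site of these enzymes. In peripheral nerve, matrix proteases act in Schwann cell migration and in the response to injury, and in dermis they act in remodelling of the collagenous matrix.

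Levels are log2 expression values, and each difference is the NSCP mean minus the SKP mean of these values. A gene is called higher or lower when limma's adjusted p, over all genes, was under 0.05. A group mean not above 5.32 is called within background. That level was taken from 226 odorant and pheromone receptor genes, as the 95th percentile of their mean levels. Levels of different genes come from different probes and were not set against each other. In these bulk cultures, fewer cells of a type and less RNA per cell cannot be told apart.

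The labels were checked against marker lists. All 10 measured markers of the Schwann lineage (of 12 in the list) were higher in NSCPs, and their mean level lay between 11.12 and 11.24 on NSCP arrays and between 7.28 and 7.48 on SKP arrays. All 11 fibroblast markers were lower in NSCPs (7.21 to 7.49 against 11.87 to 11.99 in SKPs), although Col1a1 remained at 11.80 ± 0.18 and Postn at 12.30 ± 0.15 in NSCPs (SD, n = 3 each), both named after their values were seen. The 15 markers of macrophages and leukocytes were all lower in NSCPs, 10 of them with NSCP means within background. Their mean was 5.04 to 5.14 on NSCP arrays, within background, and 10.28, 9.31 and 9.58 in SKP replicates 1, 2 and 3. The part of leukocyte RNA in the differences below was not tested. Markers of endothelium (4 measured), keratinocytes (5), mural cells (6) and melanocytes (5) had list means between 4.63 and 6.28 on all 6 arrays, although single members differed. Cspg4, a mural cell marker, averaged 5.86 in NSCPs and 8.75 in SKPs, and Cdh1, an epithelial cadherin, 7.55 in NSCPs and 6.47 in SKPs. The melanocyte markers Tyrp1 and Dct were higher in NSCPs, by 1.40 and 1.11, and Mlana differed by -1.22. The part of these cell types in the results was not tested.

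Most called genes of the family were lower in NSCPs and a smaller number was higher. Of the 50 genes, 34 were called, against 43.7% of all genes. Among them 26 (52.0%) were lower, against 18.6% of all genes, and 8 (16.0%) were higher, against 25.2% of all genes. With each array centred on its own median, the split was 24 lower and 11 higher for the family, and for all genes it was 2704 lower and 8148 higher in place of 3376 and 4569. Differences of at least 1 on the log2 scale among the called genes were found for 18 lower members, against 9.98% of all genes (Mmp10 is among the 18, although its bound against background was 1.90-fold), and 4 higher members, against 7.45% of all genes. Without SKP replicate 1, 5 members were higher and 26 lower. The calls over all genes in that setting are not given here, so this change is not read as particular to the family. The median difference was -0.68 over the 50 genes and 0.14 over all genes. The NSCP and SKP arrays did not overlap for 39 members, against 56.6% of all genes, with NSCPs below in 28, against 22.1% of all genes, and above in 11, against 34.4% of all genes. Both group means were within background for Mmp1, Mmp7, Mmp20, Mmp21, Mmp27 and Timp4, so the levels of these 6 genes carry little information.

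**Figure D1:**
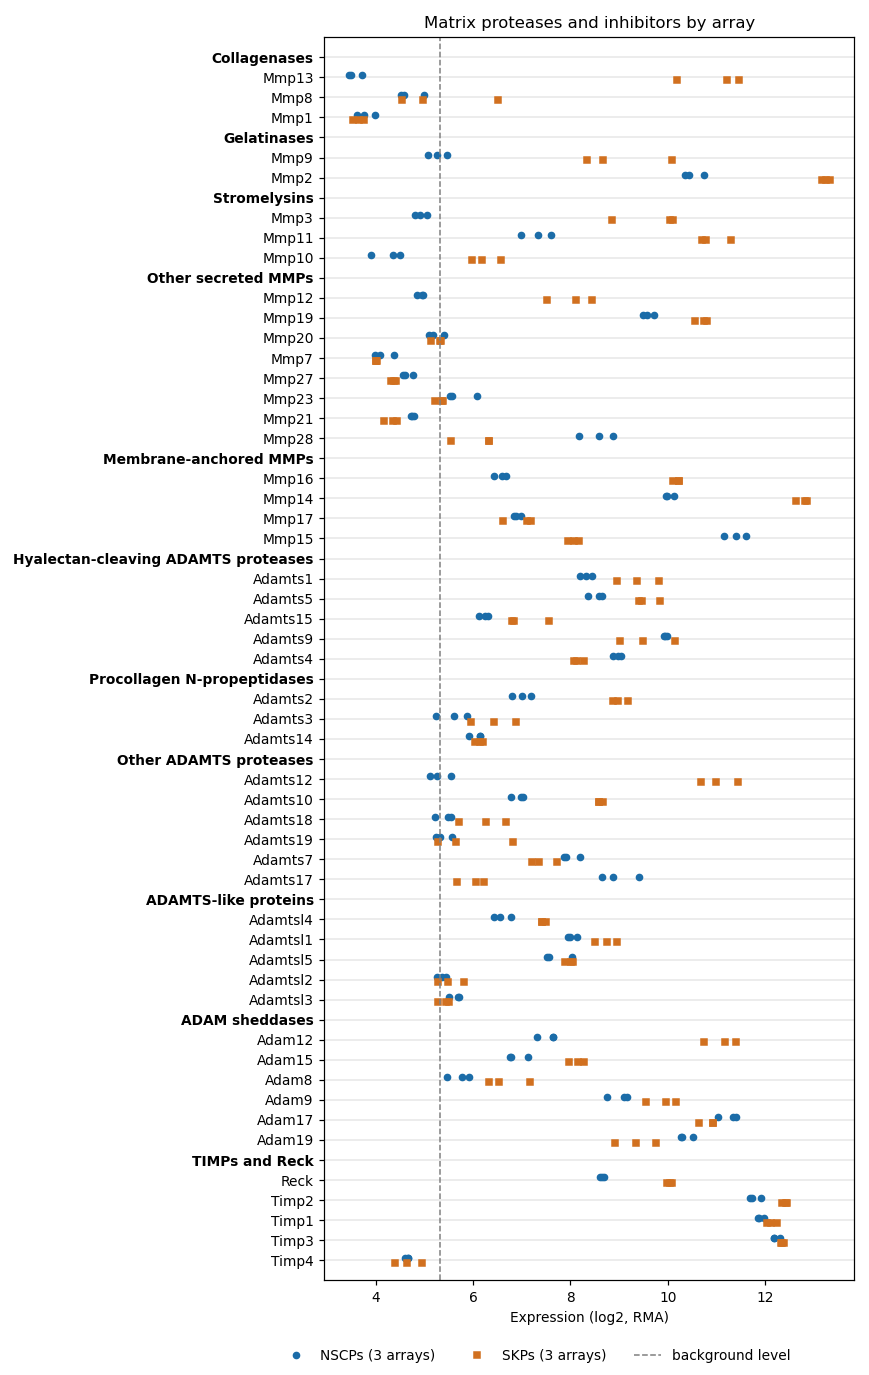
Expression (log2, RMA) of the 50 genes on each array, grouped by role, with NSCPs as circles and SKPs as squares and the background level of 5.32 as a dashed line. Mmp13, Mmp3, Mmp9, Mmp12, Mmp10 and Adamts12 have group means above the line only in SKPs, although Mmp9 in NSCP replicate 2 and Adamts12 in NSCP replicate 1 lie just above it, while Mmp15, Mmp28 and Adamts17 lie higher in NSCPs.

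Several collagenases, the stromelysins Mmp3 and Mmp10, matrilysin and metalloelastase sit side by side in 1 gene cluster on rat chromosome 8. RefSeq (assembly GRCr8) lists 10 MMP genes there as direct neighbours among protein-coding genes, in the order Mmp13, Mmp12, Mmp1b, Mmp3, Mmp1, Mmp10, Mmp8, Mmp27, Mmp20 and Mmp7. Of the 9 that were analysed, 4 were lower in NSCPs (Mmp13, Mmp12, Mmp3 and Mmp10), 0 were higher (limma; 1 at an unadjusted p under 0.05, Mmp27) and 5 were not called, against 18.6% lower and 25.2% higher among all genes. Mmp27 was called higher with median centring (adjusted p = 0.00944) and with array weights (adjusted p = 0.0121). All 9 NSCP means lay within background. On the SKP side the means of Mmp13, Mmp12, Mmp3 and Mmp10 were above background. That of Mmp8 was barely above it, at 5.34, with SKP replicate 2 alone clearly above. The means of Mmp1, Mmp27, Mmp20 and Mmp7 were within background.

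The 120 bases before the start of each analysed cluster gene are shown because they hold the short elements marked in capitals, in called genes as well as in several uncalled ones; Mmp27 has neither element and Mmp8 has no AP-1 element. The sequences are from RefSeq's GRCr8 promoters. Capitals mark TGANTCA, searched here as the AP-1 element with any base at N, and TATAAA (the TATA box). Each was searched on both strands, so the Mmp8 match reads TTTATA.
Mmp13, chr8:12782709-12782828, + strand: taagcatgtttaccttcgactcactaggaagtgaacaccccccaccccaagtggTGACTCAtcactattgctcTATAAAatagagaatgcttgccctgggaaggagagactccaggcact
Mmp12, chr8:12866532-12866651, + strand: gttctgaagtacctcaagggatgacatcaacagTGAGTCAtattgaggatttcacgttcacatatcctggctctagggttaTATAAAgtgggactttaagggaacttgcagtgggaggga
Mmp3, chr8:12925161-12925280, + strand: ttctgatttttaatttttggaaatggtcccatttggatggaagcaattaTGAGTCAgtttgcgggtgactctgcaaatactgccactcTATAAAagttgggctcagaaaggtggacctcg
Mmp1, chr8:12943333-12943452, + strand: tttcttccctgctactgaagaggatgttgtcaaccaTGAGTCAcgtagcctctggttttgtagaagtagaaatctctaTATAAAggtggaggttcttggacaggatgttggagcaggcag
Mmp10, chr8:12974587-12974706, + strand: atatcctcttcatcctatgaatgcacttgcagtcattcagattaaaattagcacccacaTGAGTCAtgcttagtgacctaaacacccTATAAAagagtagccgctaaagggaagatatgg
Mmp8, chr8:13008770-13008889, + strand: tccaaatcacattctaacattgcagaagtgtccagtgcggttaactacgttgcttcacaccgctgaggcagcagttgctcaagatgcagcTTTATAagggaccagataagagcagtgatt
Mmp27, chr8:13030632-13030751, + strand: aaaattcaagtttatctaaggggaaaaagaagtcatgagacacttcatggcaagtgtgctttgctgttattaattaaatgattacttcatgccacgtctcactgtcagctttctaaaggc
Mmp20, chr8:13074159-13074278, + strand: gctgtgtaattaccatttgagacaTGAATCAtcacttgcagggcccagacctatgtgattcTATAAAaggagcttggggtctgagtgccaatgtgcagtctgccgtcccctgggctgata
Mmp7, chr8:13132923-13133042, + strand: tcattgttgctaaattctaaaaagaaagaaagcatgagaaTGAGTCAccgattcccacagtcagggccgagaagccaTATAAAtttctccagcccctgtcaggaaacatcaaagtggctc
The AP-1 element was found in 7 of these 9 promoters when the search ran over 300 bases, 250 before the start and 50 after it. In the called genes its first base lay 66 bases before the start in Mmp13, 87 in Mmp12, 71 in Mmp3 and 61 in Mmp10. It was also present in Mmp1 (84 bases before the start) and Mmp7 (80 bases). Matches with A at the N, TGAATCA, lay in Mmp20 (96 bases) and farther out in Mmp1 (242 bases). The means of Mmp1, Mmp7 and Mmp20 were within background in both groups. Only 1 of the 31 other members with a promoter in the table, Adam19, held the AP-1 element (169 bases before the start). Of all 33469 promoters of this length 7.33% held the AP-1 element and 14.2% the TATA box, which was found in 8 of the 9 cluster promoters and 5 of the 31 others. The cAMP response element TGACGTCA was in 1.83% of all promoters and in 0 of the 40 members' promoters. These are matches of letters only, and binding was not measured.

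**Figure D2:**
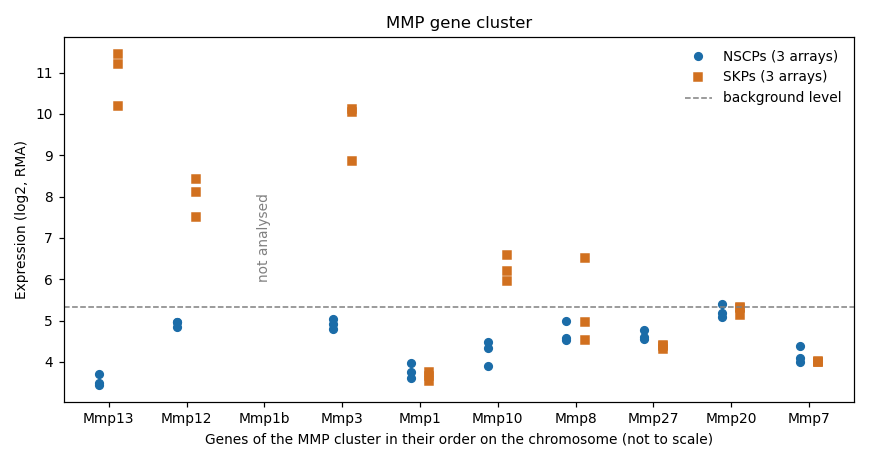
Expression (log2, RMA) of the cluster genes in their order on the chromosome, with NSCP arrays as circles, SKP arrays as squares and the background level of 5.32 as a dashed line. Positions on the axis give the order only. Mmp13, Mmp12, Mmp3 and Mmp10 are above background in SKPs and below it in NSCPs.

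Of the collagenases, which open the collagen triple helix, Mmp13 had 3.71, 3.44 and 3.49 in NSCP replicates 1 to 3, against 11.22, 10.19 and 11.46 in SKP replicates 1 to 3. All NSCP arrays were at background and all SKP arrays were high, with SKP replicate 2 the lowest of them. The difference was -7.41 (SE 0.29, adjusted p = 2.80e-07), and against the background level Mmp13 was at least 49.7-fold lower in NSCPs. Mmp8, a collagenase known from neutrophils, was not called (-0.64 (SE 0.44, adjusted p = 0.265)). It had 4.58, 4.99 and 4.53 in NSCPs, against 4.96, 6.52 and 4.54 in SKPs, so SKP replicate 2 alone lay clearly above background. Mmp1 was not called (difference 0.14 (SE 0.14, adjusted p = 0.448)).

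The stromelysins Mmp3 and Mmp10 cut proteoglycans and activate other MMPs. All 3 stromelysins, Mmp11 among them, were lower in NSCPs, against 18.6% of all genes. Mmp3 had 4.81, 5.04 and 4.91 in NSCPs, against 10.05, 8.86 and 10.11 in SKPs (difference -4.75 (SE 0.30, adjusted p = 4.41e-06)), at least 20.4-fold lower against the background level. Mmp10 had 3.90, 4.50 and 4.35 in NSCPs, against 6.58, 5.97 and 6.19 in SKPs, at least 1.90-fold lower (difference -2.00 (SE 0.20, adjusted p = 7.59e-05)). For both genes the groups did not overlap and NSCPs were within background. Mmp11, stromelysin 3, is known as a product of stromal fibroblasts and is activated inside the cell by furin. It had 7.33, 7.59 and 6.98 in NSCPs, against 10.70, 11.31 and 10.79 in SKPs and was 12.4-fold lower in NSCPs, with a difference of -3.63 (SE 0.21, adjusted p = 2.30e-06), and NSCPs kept a level above background.

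The gelatinases cut denatured collagen and the collagen of basement membranes, and both were lower in NSCPs, against 18.6% of all genes. Mmp2, which mesenchymal cells make constitutively, had 10.44, 10.75 and 10.35 in NSCPs, against 13.17, 13.26 and 13.34 in SKPs. It was high in every culture, but all NSCP arrays were below all SKP arrays, and the difference of -2.74 (SE 0.14, adjusted p = 1.18e-06) amounts to 6.67-fold. Mmp9, a gelatinase of leukocytes and of many induced cells, had 5.07, 5.47 and 5.25 in NSCPs, against 8.33, 8.66 and 10.08 in SKPs. NSCPs lay at the background level, and among SKPs replicate 3 stood above the other two. The difference was -3.76 (SE 0.39, adjusted p = 8.54e-05), at least 12.6-fold lower against the background level.

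Among the remaining secreted MMPs, Mmp12 and Mmp19 were lower and Mmp28 was higher in NSCPs. Mmp12, the elastase of macrophages, had 4.85, 4.96 and 4.97 in NSCPs, against 8.11, 8.43 and 7.52 in SKPs (difference -3.10 (SE 0.21, adjusted p = 7.14e-06)), and was at least 6.51-fold lower against the background level. Mmp19 had 9.57, 9.72 and 9.49 in NSCPs, against 10.55, 10.81 and 10.74 in SKPs and was 2.16-fold lower (difference -1.11 (SE 0.13, adjusted p = 1.67e-04)), with both groups well above background. Mmp28, epilysin, is a furin-activated MMP first known from epithelia. It had 8.17, 8.88 and 8.58 in NSCPs, against 6.33, 5.55 and 6.32 in SKPs, so that the lowest NSCP array exceeded the highest SKP array, and was 5.56-fold higher in NSCPs (difference 2.48 (SE 0.25, adjusted p = 7.21e-05)). Mmp21 was also called higher (0.43 (SE 0.12, adjusted p = 0.0183)), within background in both groups, and its call was lost without NSCP replicate 3 or SKP replicate 1. Mmp7, Mmp20, Mmp23 and Mmp27 were not called, with differences from -0.04 to 0.41.

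Membrane-anchored MMPs went in opposite directions. Mmp14, which activates the Mmp2 proenzyme at the cell surface with the help of Timp2, had 9.99, 10.13 and 9.96 in NSCPs, against 12.64, 12.86 and 12.82 in SKPs. It remained well above background in NSCPs and was 6.70-fold lower there (difference -2.74 (SE 0.12, adjusted p = 5.36e-07)), a difference of the same size as that of Mmp2. Mmp16, a relative of Mmp14 that also activates Mmp2, had 6.44, 6.60 and 6.67 in NSCPs, against 10.23, 10.11 and 10.23 in SKPs and was 12.3-fold lower (difference -3.62 (SE 0.12, adjusted p = 1.12e-07)). Mmp15, another transmembrane MMP, had 11.15, 11.60 and 11.41 in NSCPs, against 8.18, 7.95 and 8.08 in SKPs. It was 10.0-fold higher in NSCPs, with a difference of 3.32 (SE 0.15, adjusted p = 5.15e-07), the largest difference upward among the 50 genes. Mmp17, anchored by a glycolipid, was not called, with 6.90 ± 0.08 on NSCP arrays and 6.97 ± 0.31 on SKP arrays (SD, n = 3 each) and a 95% interval of the difference from -0.45 to 0.30.

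**Figure D3:**
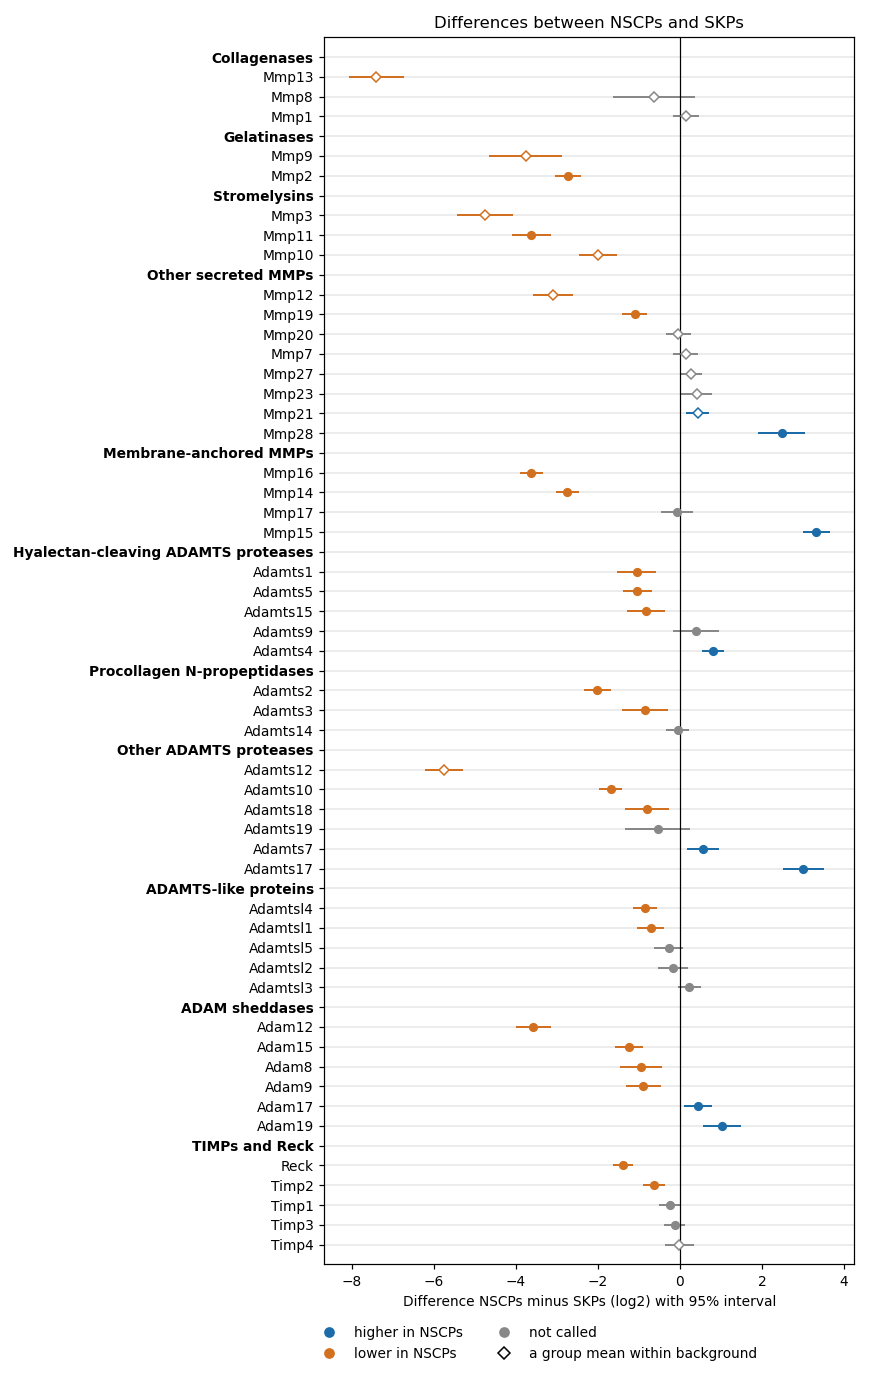
Difference between NSCPs and SKPs (log2, NSCPs minus SKPs) with its 95% interval for each of the 50 genes, coloured by the limma call, with open diamonds where at least 1 group mean lay within background. The differences run from -7.41 for Mmp13 to 3.32 for Mmp15.

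ADAMTS proteases that cut hyalectans, the large proteoglycans such as versican and aggrecan, differed by about 2-fold or less. Adamts1 had 8.20, 8.44 and 8.33 in NSCPs, against 9.37, 9.81 and 8.95 in SKPs (difference -1.05 (SE 0.21, adjusted p = 0.00347)). Its direct neighbour on the chromosome, Adamts5, had 8.64, 8.37 and 8.59 in NSCPs, against 9.48, 9.84 and 9.40 in SKPs (difference -1.04 (SE 0.15, adjusted p = 6.78e-04)). Both were lower in NSCPs without overlap, by 2.07-fold and 2.05-fold. Adamts15 was lower by a difference of -0.84 (SE 0.20, adjusted p = 0.00959), while Adamts4 was higher by 0.81 (SE 0.12, adjusted p = 6.75e-04). Adamts9 was not called, with 9.94 ± 0.03 on NSCP arrays and 9.55 ± 0.56 on SKP arrays (SD, n = 3 each). Versican itself, the gene Vcan, was 93.9-fold lower in NSCPs (5.55 ± 0.14 against an SKP level of 12.11 ± 0.02, SD, n = 3 each). Its NSCP mean lay close to the background level of 5.32, so this fold is imprecise.

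Procollagen N-propeptidases trim the amino ends of fibrillar procollagens. Adamts2 had 6.81, 7.19 and 7.00 in NSCPs, against 8.88, 8.98 and 9.18 in SKPs and was 4.04-fold lower in NSCPs (difference -2.01 (SE 0.14, adjusted p = 8.82e-06)). Adamts3 was called lower as well (-0.86 (SE 0.25, adjusted p = 0.0217)), and its adjusted p ran from 0.00485 to 0.0862 when single arrays were left out, missing the threshold without NSCP replicate 1, NSCP replicate 2, SKP replicate 2 or SKP replicate 3. Adamts14 was not called (-0.06 (SE 0.12, adjusted p = 0.715)).

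The remaining ADAMTS genes held the largest differences among ADAMTS proteases in both directions. Adamts12, known to cut cartilage oligomeric matrix protein, had 5.53, 5.12 and 5.25 in NSCPs, against 10.69, 11.44 and 11.00 in SKPs. NSCPs lay at the background level and SKPs were high on every array, a difference of -5.74 (SE 0.20, adjusted p = 1.50e-07) and at least 50.4-fold against the background level. Adamts17, which acts in the fibrillin matrix, went the other way. It had 8.65, 9.41 and 8.88 in NSCPs, against 6.22, 6.06 and 5.66 in SKPs, with every NSCP array above every SKP array (difference 3.00 (SE 0.22, adjusted p = 1.00e-05)). Adamts10, its relative and also linked to fibrillin microfibrils, had 7.02, 6.99 and 6.77 in NSCPs, against 8.59, 8.58 and 8.67 in SKPs and was 3.22-fold lower (difference -1.68 (SE 0.12, adjusted p = 9.20e-06)).

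Adamts7 was higher by 0.56 (SE 0.17, adjusted p = 0.0259) and Adamts18 lower by -0.81 (SE 0.23, adjusted p = 0.0211), both close to the threshold. The call on Adamts7 was lost without NSCP replicate 2, SKP replicate 1 or SKP replicate 2, and that on Adamts18 without NSCP replicate 1, NSCP replicate 2 or SKP replicate 3. Adamts19 was not called (-0.54 (SE 0.35, adjusted p = 0.235)). Of the ADAMTS-like genes, Adamtsl4 (-0.85 (SE 0.13, adjusted p = 7.65e-04)) and Adamtsl1 (-0.71 (SE 0.14, adjusted p = 0.00399)) were lower, and Adamtsl2, Adamtsl3 and Adamtsl5 were not called, with differences from -0.28 to 0.22.

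All 6 measured ADAM sheddases were called, against 43.7% of all genes, with 4 lower and 2 higher in NSCPs, against 18.6% and 25.2% of all genes. Adam12, meltrin alpha, is known from mesenchyme and muscle precursors. It had 7.31, 7.65 and 7.63 in NSCPs, against 10.75, 11.40 and 11.17 in SKPs and was 11.9-fold lower (difference -3.58 (SE 0.19, adjusted p = 1.29e-06)). Adam15 had 6.76, 7.12 and 6.78 in NSCPs, against 8.28, 7.97 and 8.15 in SKPs and was 2.37-fold lower (difference -1.25 (SE 0.15, adjusted p = 1.82e-04)). Adam9 (-0.89 (SE 0.18, adjusted p = 0.00445)) and Adam8, a sheddase of leukocytes (-0.96 (SE 0.22, adjusted p = 0.00805)), were lower by less than 2-fold.

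Adam19, meltrin beta, which sheds neuregulins, had 10.29, 10.51 and 10.27 in NSCPs, against 8.91, 9.75 and 9.34 in SKPs. All NSCP arrays were above all SKP arrays, and Adam19 was 2.04-fold higher (difference 1.03 (SE 0.21, adjusted p = 0.00384)). Adam17, which sheds TNF and several EGF receptor ligands, had 11.40, 11.02 and 11.35 in NSCPs, against 10.93, 10.64 and 10.92 in SKPs, with the lowest NSCP array just above the highest SKP array. Its difference of 0.43 (SE 0.15, adjusted p = 0.0465) lay at the threshold, and the call was lost without NSCP replicate 1 or 3 and without SKP replicate 1, 2 or 3, where the adjusted p was 0.0624 to 0.134.

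The TIMPs, soluble inhibitors of these enzymes, had differences between -0.63 and -0.02. Of the 4, 1 was called, against 43.7% of all genes, which is too few genes to set apart from that share. Timp1 had 11.86, 11.87 and 11.99 in NSCPs, against 12.04, 12.13 and 12.24 in SKPs, and its difference of -0.23 (SE 0.12, adjusted p = 0.143) was not called, with a 95% interval from -0.50 to 0.04. Timp3, which binds to matrix and also inhibits ADAM and ADAMTS enzymes, had 12.18, 12.19 and 12.31 in NSCPs, against 12.33, 12.40 and 12.35 in SKPs. Its difference of -0.13 (SE 0.11, adjusted p = 0.364) was not called either, with an interval from -0.39 to 0.12, and it turned to 0.07 with median centring. Both genes stood between 11.86 and 12.40 in every culture, and their arrays were separated by small gaps with NSCPs below.

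Timp2 had 11.73, 11.92 and 11.70 in NSCPs, against 12.36, 12.46 and 12.43 in SKPs and was 1.55-fold lower in NSCPs (difference -0.63 (SE 0.12, adjusted p = 0.00269)). Reck, a membrane-anchored inhibitor of several MMPs, had 8.64, 8.60 and 8.69 in NSCPs, against 10.04, 9.99 and 10.08 in SKPs, and was 2.62-fold lower (difference -1.39 (SE 0.11, adjusted p = 1.60e-05)). Timp4 had 4.66, 4.67 and 4.59 in NSCPs, against 4.39, 4.95 and 4.64 in SKPs, within background on every array (difference -0.02 (SE 0.16, adjusted p = 0.934)).

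SKP replicates differed from each other more in this family than in the average gene. The median SD among SKP arrays was 0.27 over the 43 members above background in SKPs, against 0.13 over the 12404 such genes of the whole array. Among NSCP arrays it was 0.14 over 37 members and 0.16 over 12411 genes. In 24 of the 43 members (55.8%) SKP replicate 2 was the highest SKP array, against 33.6% of all such genes, and in 22 of the 37 members (59.5%) NSCP replicate 2 was the highest NSCP array, against 44.5% of all such genes. Genes of other lists also spread among SKP arrays, such as Ptprc (SD 0.96) and Pappa2 (SD 1.60). Others did not, such as Pdgfra (SD 0.01) and Vcan (SD 0.02). These 4 genes were named after their values were seen, and the spread is not read as particular to the family. These are descriptions, without a test.

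The order of the 3 SKP arrays differed between proteases. The leukocyte marker mean was 10.28, 9.31 and 9.58 in SKP replicates 1, 2 and 3. Of the 43 members, 8 (18.6%) followed that order, against 24.6% of all genes above background in SKPs, among them Mmp10, Adam9 and Adam15. The opposite order was found in 17 members (39.5%), against 22.5% of all such genes, among them Adam8, Adam12 and Mmp11. Mmp13 and Mmp3 were lowest in SKP replicate 2, Mmp12 and Mmp8 were highest in it, and Mmp9 was highest in SKP replicate 3. These genes were named after their values were seen, and the part of leukocyte RNA in these orders was not tested.

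**Figure D4:**
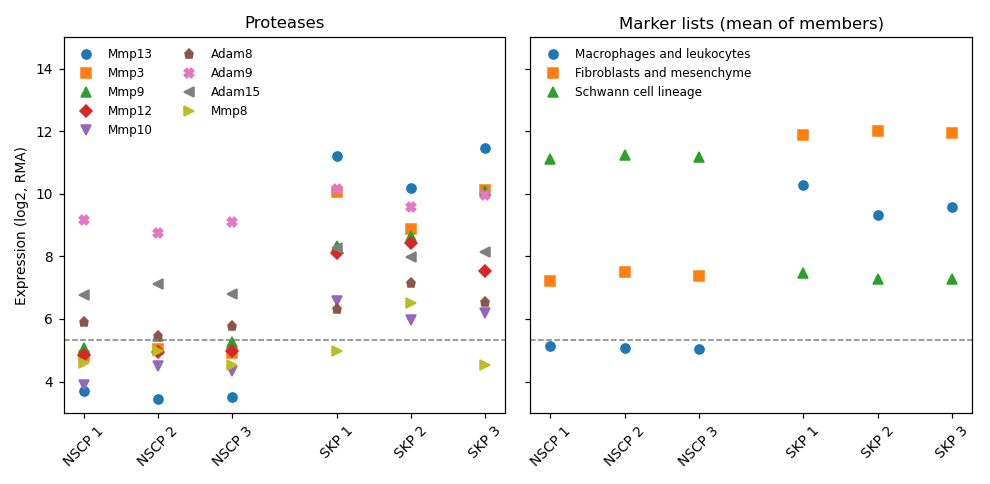
Expression (log2, RMA) of 9 proteases (left) and the mean of 3 marker lists (right) on each NSCP and SKP array, with the background level of 5.32 as a dashed line. Among SKP arrays Mmp13, Mmp3, Mmp10, Adam9 and Adam15 are lowest in replicate 2, Mmp9 is highest in replicate 3, and the leukocyte marker mean is highest in replicate 1.

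Genes around the proteases were examined in 6 further lists, chosen with earlier results of these data known. Their counts are given against 18.6% lower and 25.2% higher among all genes. Activators and surface partners of the proteases had 9 of 13 measured members lower and 2 higher in NSCPs. The claudin gene Cldn1 was 42.5-fold lower (5.40 ± 0.07 against an SKP level of 10.81 ± 0.55, SD, n = 3 each). Its NSCP mean lay close to the background level of 5.32, so this fold is imprecise. Sdc1, a cell-surface proteoglycan, differed by -2.83 (SE 0.18). Plau, the urokinase that generates plasmin, differed by -2.00 (SE 0.27), and its receptor gene Plaur by -1.74 (SE 0.26). Furin, which activates Mmp11, Mmp28 and the membrane MMPs, was lower by a difference of -0.99 (SE 0.15), and Plat, the tissue plasminogen activator, had 12.44 ± 0.07 on NSCP arrays and 12.23 ± 0.23 on SKP arrays (SD, n = 3 each; adjusted p = 0.257). Both were named after their values were seen.

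Clearance receptors and further inhibitors had 5 of 8 lower and 1 higher. The higher gene, Lrp2, was within background in both groups. Its call was lost without NSCP replicate 2 or 3, or SKP replicate 1 or 3. The call on A2m, a lower gene, was lost without NSCP replicate 1 or 3, or SKP replicate 1 or 2. Both were named after their values were seen. Lrp1, the endocytic receptor that removes MMPs, ADAMTS enzymes and TIMPs from the cell surface, was 17.5-fold lower in NSCPs (7.52 ± 0.01 against an SKP level of 11.65 ± 0.05, SD, n = 3 each). The testican genes Spock1 and Spock3 differed by -3.41 (SE 0.24) and -3.37 (SE 0.36), Spock3 with NSCPs within background. Pcolce, which enhances procollagen C-proteinase, differed by -3.14 (SE 0.18).

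Partners of Adam10 and Adam17 were the list without a lower member: 4 of 7 were higher and 0 lower in NSCPs by limma, and 0 were lower at an unadjusted p under 0.05. Tspan17 and Tspan14, tetraspanins that carry Adam10 to the surface, differed by 2.54 (SE 0.16) and 1.02 (SE 0.15). Frmd8 and Rhbdf1, which belong to the complex that escorts Adam17, differed by 1.19 (SE 0.18) and 0.46 (SE 0.13). The call on Rhbdf1 was lost without NSCP replicate 3, SKP replicate 1 or SKP replicate 2 (adjusted p 0.0545 to 0.0627). The list median was 0.46.

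Further metalloproteases of matrix and growth factors had 5 of 8 lower and 2 higher. Pappa and Pappa2, which cut IGF binding proteins, differed by -3.93 (SE 0.17) and -2.64 (SE 0.65), with NSCPs within background. SKP arrays of Pappa2 stood apart from each other, at 8.86, 5.72 and 7.84, and its difference was -3.52 without SKP replicate 2 and -1.95 without SKP replicate 1. Mme, neprilysin, differed by -1.70 (SE 0.19). Tll1, a procollagen C-proteinase of the tolloid family, was higher by 1.92 (SE 0.25). Mep1a, the other higher member, was within background in both groups, and its call was lost without SKP replicate 3.

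Matrix substrates had 12 of 20 lower and 3 higher. Among the lower members, Col1a1, Col1a2, Col3a1 and Dcn also belong to the fibroblast markers, and Nid1 to the activators and surface partners. Such genes are counted in both lists, so the lists are not independent of each other. The 3 higher members were Lamc1 (1.15 (SE 0.12)), Thbs2 (0.92 (SE 0.15)) and Bcan (0.47 (SE 0.13)). The call on Bcan was lost without NSCP replicate 3 or SKP replicate 1. Beside Vcan, the lower members with the largest differences were Dcn (-8.49, NSCPs within background), Bgn (-5.34) and Fn1 (-5.23), the genes of decorin, biglycan and fibronectin. AP-1 subunits, which bind the element marked in the cluster promoters, had 3 of 9 higher and 2 lower. Atf3, Jund and Fosl1 were higher by 1.80 (SE 0.17), 1.27 (SE 0.16) and 0.93 (SE 0.14), and Batf3 differed by -0.75 (SE 0.14). Junb, the other lower member, differed by -0.74 (SE 0.25), and its call was lost without any single NSCP replicate or without SKP replicate 1. Jun and Fos were not called (0.23 and 0.39). Junb, Jun and Fos were named after their values were seen. With median centring the AP-1 split was 5 higher and 1 lower. That setting also raised the share of higher genes among all called genes, from 57.5% to 75.1%.

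**Figure D5:**
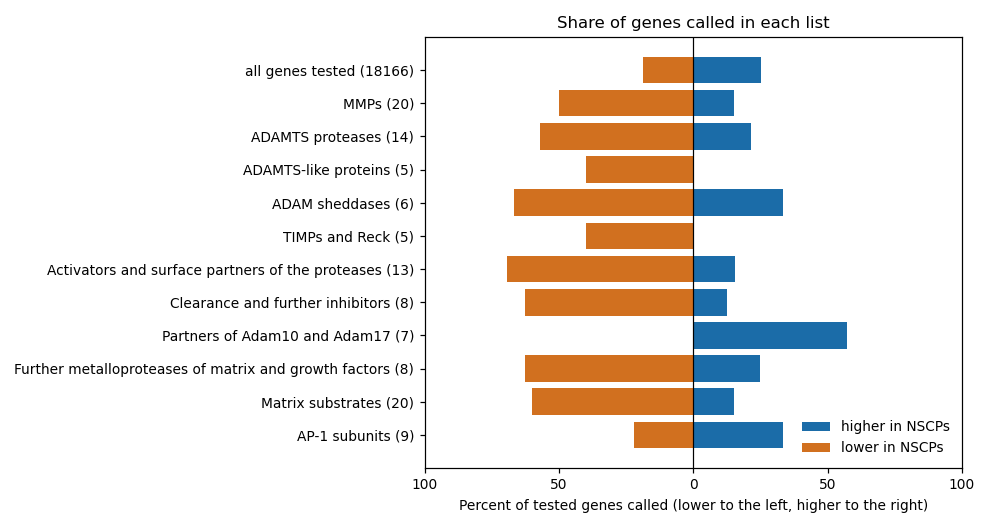
Percent of tested genes called lower (left of 0) and higher (right of 0) in NSCPs for all 18166 genes, the protease families and the 6 further lists, with the number of genes tested in parentheses. Most lists lean to the left relative to all genes, while partners of Adam10 and Adam17 have no bar on the left.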

How the data were processed

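Expression was measured on 1-colour arrays, 1 for each of 3 NSCP and 3 SKP isolates. The authors deposited log2 expression values from RMA, run in the oligo package per the submitters' processing notes, which give no versions. RMA's quantile normalization hides a shift of all genes in 1 group. Scan batches and the probe sets' genome build are not stated in the sources used here, and the number of arrays limits the precision. Of 36685 probe sets, 18511 had exactly 1 platform symbol, 575 had several and 17599 had none here. The probe set with the highest mean was kept for the 291 genes with more than 1, leaving 18166 genes. Each of the 50 family genes had 1 probe set, and all 50 matched RefSeq by Entrez ID. Cross-hybridisation between close relatives such as Mmp3 and Mmp10 was not checked.

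The NSCP and SKP arrays were compared by limma 3.58.1 (lmFit and eBayes, two-sided, Benjamini-Hochberg over all genes) in R 4.3.3, and the fit was tested on simulated data. An "at least" fold sets values under the background level to that level. Figures used matplotlib 3.10.9. The family, the lists and the naming rule were chosen with earlier results of these data known. All 6 array values are given for called genes with a difference of at least 1 and a group mean above background, and for Timp1 to Timp4, Reck, Mmp2, Mmp9, Mmp14 and Adam17. From each further list up to 4 called genes with the largest difference are named.

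Alternatives were each array left out, a replicate block, median centring, a filter on dim genes, the mean of probe sets, array weights, a robust prior with a trend, adjustment over every probe set and a threshold of 0.01.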

Additional observations from a re-analysis of the deposited data

How the results depend on the processing

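Over 14 alternatives, 32 of the 50 genes kept their direction and call in each one that included them. The 22 called genes with differences of at least 2-fold were among these 32. The number of members higher in NSCPs was 8, and 5 to 7 with 1 array left out, 5 at a threshold of 0.01 and 11 with median centring. The number lower was 26, and 24 to 27 over all alternatives. Adding a replicate block gave 8 higher and 26 lower, and changed no member's call. Deviations of same-numbered NSCP and SKP arrays from their group means correlated at 0.037, 0.050 and 0.028 across genes, under the level of 0.1 set for pairing, so the arrays were kept unpaired. Each NSCP array still correlated best with the SKP array of its own number. These correlations are small, and deviations within a group are tied to each other by the group mean. They do not decide whether the arrays were paired. Median centring, over the genes tested, added 0.20 to every difference. It moved the median difference of all genes from 0.14 to 0.35, so it did not balance the differences. It gave 8148 genes higher in place of 4569, and the 0.01 threshold gave 2886. The genes that changed sign were all uncalled. Median centring turned Mmp17 to 0.13, Mmp20 to 0.16, Adamts14 to 0.14, Adamtsl2 to 0.032, Timp3 to 0.072 and Timp4 to 0.19. Array weights turned Mmp1 to -0.014 and Mmp20 to 0.019. With 1 array left out, the difference ran from -0.13 to 0.030 for Mmp20, from -0.25 to 0.035 for Mmp17, from -0.11 to 0.013 for Adamts14 and from -0.15 to 0.13 for Timp4. Calls were gained with median centring by Mmp27 (adjusted p = 0.00944), Mmp23 (0.0111) and Adamtsl3 (0.0142), with array weights by Mmp27 (0.0121) and Adamtsl5 (0.0116), and by Adamtsl5 also without NSCP replicate 2 (0.0190). Calls were lost with median centring by Adamts3 (0.0567) and Adamts18 (0.0557), with array weights by Adamts7 (0.0908), with adjustment over all probe sets by Adamts7 (0.0539) and Adam17 (0.0836), and at the 0.01 threshold by Mmp21, Adamts3, Adamts18, Adamts7 and Adam17. Timp1 passed with the trended and robust prior (adjusted p = 0.0481), and Adamts9 passed without SKP replicate 2 (difference 0.68, adjusted p = 0.0122). The cause of these changes was not tested. With 3 arrays a group, differences under about 0.5 were at the limit of the test.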
